A study of Homo sapiens with 4 samples.

Results

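The genes described here are 46 cell death and p53 effector genes, named in a list that spans the BCL2 family, caspases, inhibitor of apoptosis proteins, death receptors, necroptosis genes and p53 genes. The list is of gene names, and the rule that sets it uses no measured value. It was, however, chosen with earlier results of these data known. Of the 46 symbols, 44 were rows of the deposited tables, which hold 19626 genes, and 40 were among the 12157 genes tested. HRK and RIPK3 were not analysed here.

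RNA was sequenced from ES-2 cells, an established line labelled as human ovarian clear cell carcinoma that carries the YAP1-MAML2 (YM) fusion. The control group (shCtl) received pLKO.1 lentivirus with a nontargeting shRNA, and the other group (shM2-3) received the same vector with an shRNA against MAML2, which acts on both MAML2 and YM transcripts. Each group had 2 libraries from independent cultures. The comparison asks which transcripts differ once YM and MAML2 are depleted. Both groups grew in DMEM with fetal bovine serum. Per the labels they were infected for 8 h on each of consecutive days and gave RNA 96 h after the first infection. The methods of the study state a shorter time for each. The data come from a single line and a single shRNA, so effects of shM2-3 on other transcripts cannot be told apart from effects of YM or MAML2 loss.

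In the intrinsic pathway of apoptosis, BH3-only proteins bind pro-survival BCL2 proteins or act directly on BAX and BAK1, which open the outer mitochondrial membrane, release cytochrome c and so let APAF1 activate CASP9. In the extrinsic pathway, death ligands engage receptors that recruit FADD and CASP8, and CFLAR limits that step. The transcription factor p53 induces members of both pathways together with MDM2, which in turn limits p53. Abundance of these transcripts does not measure cell death, because most of the proteins are also controlled by binding, cleavage and degradation.

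The libraries held between 20051083 and 23978660 estimated counts. MAML2, the targeted gene, was at RPKM values (a read count scaled for transcript length and sequencing depth) of 8.61 and 8.26 in shCtl and 3.11 and 2.998 in shM2-3, so that 36.2% remained. Among markers fixed for the labelled cell type, KRT7, KRT8 and KRT18 were above RPKM 1, while EPCAM had at most 6 counts and CDH1 at most 4. Of the clear cell markers reported here, AMACR passed RPKM 1, while PAX8 had at most 22 counts and NAPSA at most 13. The summed RPKM of the 6 epithelial markers was 637 in each shCtl library, against 312 and 316 in shM2-3, and that of the 6 fibroblast markers was 26.3 in each shCtl library, against 69.9 and 69.6 in shM2-3, almost all of it COL6A3. DCN and LUM had at most 6 counts in any library. Leukocyte markers summed to 57.4 to 58.3 in shCtl and 40.0 to 41.1 in shM2-3, chiefly CD68, with PTPRC at no more than 3 counts. Others of that list did not follow the sum, with CD14 at 3 and 4 counts against 42 and 37 and LYZ at 33 and 15 against 100 and 5. The 3 endothelial markers summed to 9.21 and 10.3 against 5.49 and 4.95, most of it CDH5, while PECAM1 went from 6 and 5 counts with shCtl to 256 and 163 with shM2-3. The part of these shifts in the results below was not tested, and in bulk RNA fewer cells of a type and less RNA per cell cannot be told apart.

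BMF, which encodes a BH3-only protein, had the largest log2 fold change of the tested members, with a fitted level 35.3-fold higher in shM2-3. The other called higher were CASP1, BCL2L11, RIPK1, PMAIP1, CFLAR and CASP6, and BCL2A1 was the single member called lower. A call required an adjusted p (Benjamini-Hochberg) of at most 0.05 in edgeR's quasi-likelihood test over all 12157 genes and a fold change of 2 or more. Called higher were thus 7 of 40 tested members (17.5%), against 9.24% of all genes tested, and called lower was 1 of 40 (2.5%), against 8.93%.

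At the adjusted p alone, 21 members rose (52.5%, against 36.3% of all genes) and 9 fell (22.5%, against 36.4%), while 10 did not pass. Of the 30 members that passed, 22 had changes of less than 2-fold. The median log2 fold change (shM2-3 over shCtl) was 0.24 over the 40 members and -0.0037 over all genes, and the median size without regard to sign was 0.50 and 0.45. RPKM values of the groups did not overlap for 33 of the 40 members, of which 21 were higher and 12 lower in shM2-3, and 86% of all genes tested had groups that did not overlap. A total of 3 members entered the test because of a single group, since BMF and CASP1 were above RPKM 1 in shM2-3 libraries alone and FAS in a shCtl library alone. When all 19626 genes were fitted with no limit on RPKM, the 44 members included 7 called higher, with 8.45% of all genes, and 2 called lower, with 7.76%. That set of 7 held TNFSF10 in place of CASP6, which was at 0.99, and TNFSF10 entered from no more than 11 counts in any library. The 2 lower members were BCL2 and BCL2A1.

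**Figure D1:**
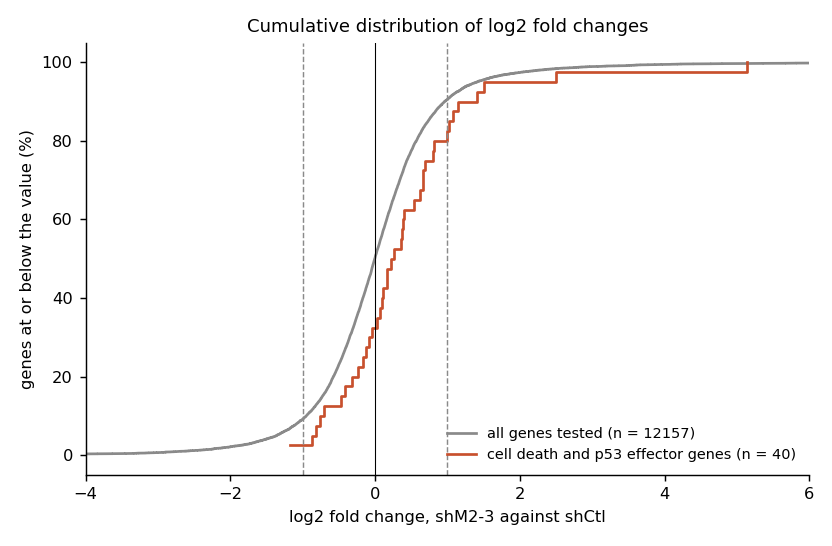
Cumulative percent of genes (vertical axis) at or below each log2 fold change of shM2-3 over shCtl (horizontal axis), for all 12157 genes tested and for the 40 tested members. The members' curve lies mostly to the right of the curve of all genes, with medians of 0.24 and -0.0037. Genes with the most extreme changes fall outside the drawn range.

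**Figure D2:**
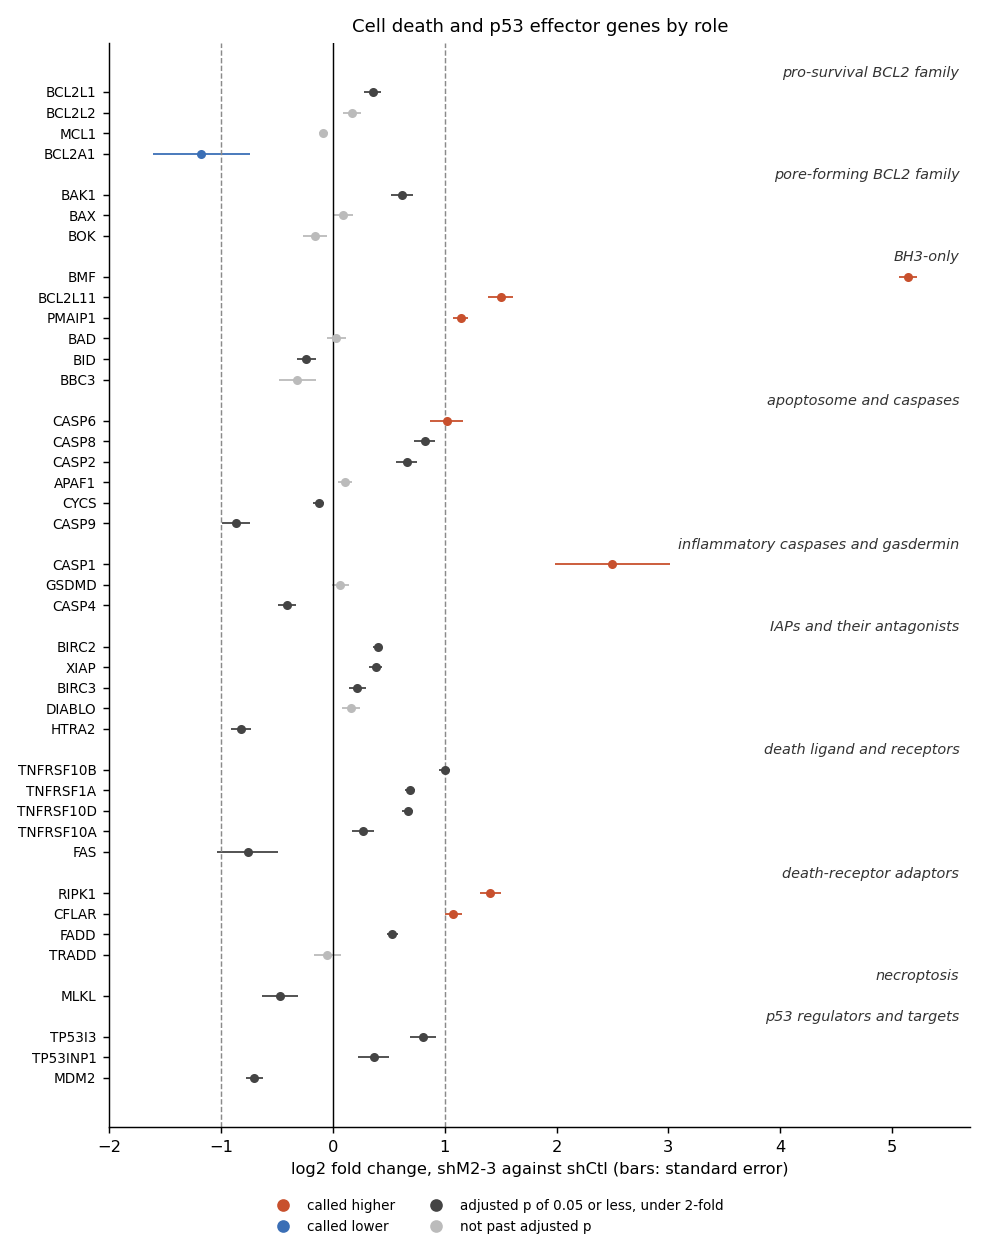
Log2 fold change of shM2-3 over shCtl (horizontal axis) for the 40 tested members, grouped by role, with bars of 1 standard error and dashed lines at the 2-fold limits. BMF stands apart at 5.14, 7 members lie past the upper limit with an adjusted p of 0.05 or less, and BCL2A1 lies past the lower limit.

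Promoter windows of the called members are shown as the sequence context of the genes that passed both limits. Of 46 members, 34 had an entry among the 27305 RefSeq promoters (hg38, windows around each gene start), including 7 of the 8 called members. Letters or named consensus motifs were searched on both strands, and capitals mark the match in each window. The TEAD motif GGAATG, bound by the TEAD factors that YAP1 partners with, was found in 0 of the 7 promoters, in 2 of the 34 and in 14.0% of all promoters. An NF-kB motif was found in 2 of the 7, those of BMF and CFLAR, and in 10.8% of all promoters. The p53 half-site was found in 0 of the 7 and in 6.54% of all promoters. Among the 9571 promoters of tested genes, 10.9% held the TEAD motif, 12.9% an NF-kB motif and 5.18% the p53 half-site. A GAS motif (TTCNNNGAA) and an interferon-stimulated response element (ISRE, searched as GAAA, any 2 bases, GAAA), which were held by 7.88% and 3.65% of all promoters, were both found in the promoter of BCL2A1. The windows were as follows, 5′ to 3′ on the strand of the gene, with BMF at chr15:40108881-40108908 (minus strand), CFLAR at chr2:201118610-201118637 (plus strand), the GAS window of BCL2A1 at chr15:79971347-79971373 (minus strand) and its ISRE window at chr15:79971311-79971338 (minus strand).
BMF, NF-kB: gctgtttgcGGGATGCCCCgagcaggcg
CFLAR, NF-kB: gcggggggcGGGGAATTCCgcagacagg
BCL2A1, GAS: ggaagtggcTTCTCTGAAacattttcc
BCL2A1, ISRE: attttaaacTTTCTCTTTCatacatgac
Measured from the RefSeq start in the promoter table, the matches ended 11 bases upstream for BMF and 88 bases upstream for CFLAR. The gene positions printed with the members are from GENCODE, and the CFLAR window lies inside the gene as annotated there, while the BMF window spans its start. The matches shown do not overlap each other. Over the 34 member promoters, NF-kB and ISRE motifs were each found in 4, a GAS motif in 2 and the p53 half-site in 1, that of BAK1. Promoters of tested genes held a GAS motif in 6.38% and an ISRE in 2.77%. The matches are descriptions of letters in these windows, and a window without a match says nothing about the factor.

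Among pro-survival members, which hold BAX, BAK1 and the BH3-only proteins in check, 1 of 4 tested genes rose, 1 fell and 2 did not pass. At the adjusted p, 36.3% of all genes tested rose and 36.4% fell. BCL2A1, an NF-kB-inducible pro-survival gene on chromosome 15 (79960892 to 79971196, minus strand), had 38 and 60 counts with shCtl and 33 and 15 with shM2-3. Its RPKM was 1.94 and 3.01 in shCtl and 1.38 and 0.692 in shM2-3, so both shCtl libraries were above both shM2-3 libraries, but the nearest values lay close together. The log2 fold change of BCL2A1 was -1.18 (SE 0.435, adjusted p = 0.0263), and the call was lost without shCtl replicate 2 (-0.83, adjusted p = 0.177) or without shM2-3 replicate 2 (-0.78, adjusted p = 0.166), while without shM2-3 replicate 1 the value was -1.76.

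BCL2L1, which encodes BCL-XL, rose modestly, with RPKM of 14.8 and 13.2 in shCtl and 16.2 and 18.0 in shM2-3 and a log2 fold change of 0.36 (SE 0.0764, adjusted p = 0.000903). MCL1, a short-lived pro-survival protein, was the most abundant of the family. Its RPKM was 61.3 and 62.8 in shCtl and 55.5 and 56.2 in shM2-3, with a log2 fold change of -0.087 that missed the threshold (adjusted p = 0.0689). MCL1 passed with total counts in place of TMM scaling (-0.12, adjusted p = 0.0110). It also passed with limma on log2(RPKM + 0.1) and log2(RPKM + 1), with no filter on low values and with edgeR's filterByExpr. BCL2L2 was at 7.85 and 8.32 in shCtl and 8.30 and 9.09 in shM2-3, and it passed the adjusted p without shM2-3 replicate 1 alone (0.24). The founding member BCL2 was below RPKM 1 in every library and so was not tested with the rest. It had 113 and 131 counts with shCtl and 34 and 20 with shM2-3, and the fit without the RPKM limit gave a log2 fold change of -2.35 (SE 0.281, adjusted p = 3.98e-16).

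Summed over the 5 genes, the pro-survival RPKM was 86.6 and 88.3 in shCtl and 81.6 and 84.2 in shM2-3. MCL1 made up 70.8% and 71.2% of this sum in shCtl and 68.0% and 66.8% in shM2-3. The share of BCL2L1 was 17.1% and 15.0% in shCtl and 19.9% and 21.4% in shM2-3. Family composition therefore differed by a few percentage points, with MCL1 lower and BCL2L1 higher in both shM2-3 libraries.

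Of the 3 pore-forming members, 1 rose and 2 did not pass, where 36.3% of all genes rose and 36.4% fell at the adjusted p. BAK1, which resides in the outer mitochondrial membrane, was at RPKM 6.04 and 6.36 in shCtl and 9.27 and 8.95 in shM2-3, a log2 fold change of 0.62 (SE 0.0984, adjusted p = 6.93e-05). BAX, which moves to mitochondria on activation and is also a p53 target, had overlapping groups, with RPKM of 22.2 and 27.0 in shCtl and 25.7 and 24.4 in shM2-3 (adjusted p = 0.336), and it passed only without shCtl replicate 2 (0.24, adjusted p = 0.0214). BOK was at 6.05 and 6.92 in shCtl and 5.40 and 5.67 in shM2-3, a log2 fold change of -0.16 (SE 0.107, adjusted p = 0.189).

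The BH3-only group held the member with the largest change. Of its 6 tested genes, 3 were called higher, where 9.24% of all genes tested were. BID fell by less than 2-fold, BBC3 and BAD did not pass, and the group median log2 fold change was 0.59. BMF (chromosome 15, 40087890 to 40108892, minus strand) had 91 and 87 counts with shCtl and 3588 and 3358 with shM2-3. Its RPKM was 0.783 and 0.736 in shCtl and 25.2 and 26.1 in shM2-3, with the replicates of each group close together and the groups far apart. The log2 fold change was 5.14 (SE 0.0788, adjusted p = 5.43e-15), rank 37 from the highest among 12157 genes. Exons of BMF overlap the annotated antisense gene BMF-AS1, which was not analysed here. BMF protein is known for linking the cytoskeleton and loss of attachment to BCL2 proteins.

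BCL2L11, which encodes BIM, a BH3-only protein that binds all pro-survival members, had 180 and 194 counts with shCtl and 592 and 574 with shM2-3. Its RPKM was 1.24 and 1.31 in shCtl and 3.33 and 3.56 in shM2-3, a 2.83-fold difference (log2 fold change 1.4999, SE 0.111, adjusted p = 3.78e-08). The gene lies on chromosome 2 (111119378 to 111168444, plus strand) and shares exon sequence with MIR4435-2HG. That transcript moved the other way, with 1196 and 1078 counts with shCtl and 511 and 463 with shM2-3, and since the libraries were not strand-specific, reads of overlapping exons cannot be assigned to a strand.

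PMAIP1, which encodes NOXA, a p53-inducible protein that chiefly binds MCL1 and BCL2A1, was at RPKM 23.8 and 24.03 in shCtl and 47.6 and 53.3 in shM2-3. The log2 fold change was 1.14 (SE 0.0640, adjusted p = 2.13e-09), or 2.21-fold, and both shM2-3 libraries were above both shCtl libraries. It lies on chromosome 18 (59899996 to 59904305, plus strand) with no exon of another annotated gene over its own. BBC3, which encodes PUMA, the other BH3-only protein best known as a p53 target, had 183 and 225 counts with shCtl and 176 and 184 with shM2-3. Its RPKM of 3.91 and 4.72 in shCtl and 3.08 and 3.55 in shM2-3 gave a log2 fold change of -0.32 (SE 0.165, adjusted p = 0.0979), although limma on log2(RPKM + 1) gave -0.30 with an adjusted p of 0.0368. PMAIP1 and BBC3 thus had fold changes of opposite sign, of which that of PMAIP1 alone passed in edgeR.

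BID, which CASP8 cleaves to join the extrinsic to the intrinsic pathway, was at RPKM 10.6 and 12.1 in shCtl and 9.15 and 9.24 in shM2-3, a log2 fold change of -0.24 (SE 0.0855, adjusted p = 0.0227) that missed the threshold without shCtl replicate 2 or either shM2-3 library. BAD, which growth factor signalling holds inactive by phosphorylation, had overlapping groups (23.3 and 22.0 against 23.6 and 20.6). BIK had at most 3 counts in any library, and no fold change is given for it.

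Added over the BH3-only genes, RPKM was 63.7 and 65.0 in shCtl and 112 and 116 in shM2-3. BMF contributed 1.23% and 1.13% of that sum in shCtl and 22.5% and 22.4% in shM2-3. The group means differed by 49.9 RPKM, and BMF and PMAIP1 differed by 24.9 and 26.5. Without these 2 genes the sum was 39.1 and 40.3 in shCtl and 39.2 and 37.0 in shM2-3, so the rise in the sum lay in BMF and PMAIP1, and the smaller gain of BCL2L11 was offset by the other members. The ratio of summed BH3-only to summed pro-survival RPKM was 0.735 and 0.737 in shCtl and 1.37 and 1.38 in shM2-3, values that describe transcripts per length and carry no test.

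**Figure D3:**
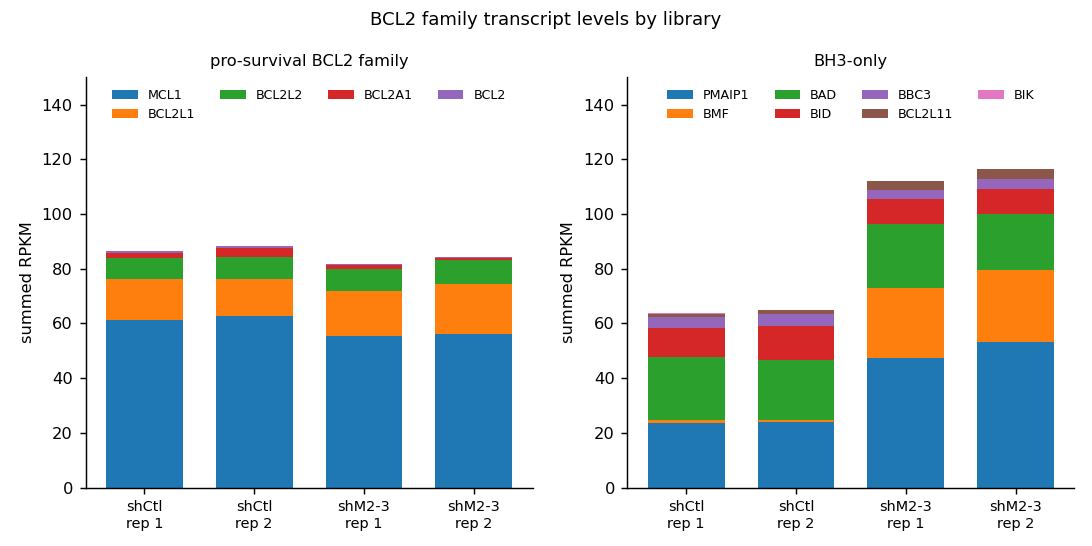
Stacked RPKM (vertical axis, from 0) of the pro-survival genes and of the BH3-only genes in each of the 4 libraries. The pro-survival stacks stay between 81.6 and 88.3, with MCL1 as the main part, while the BH3-only stacks stand at 63.7 and 65.0 in shCtl and at 112 and 116 in shM2-3.

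The apoptosome and the caspases moved in both directions. Of 6 tested genes 3 rose (CASP2, CASP6 and CASP8), 2 fell (CASP9 and CYCS) and APAF1 did not pass, and CASP6 was the one called. Of all genes tested, 36.3% rose and 36.4% fell at the adjusted p, and 9.24% were called higher. CASP6, an executioner caspase known to cleave lamin A, had 143 and 141 counts with shCtl and 309 and 325 with shM2-3. Its RPKM was 3.74 and 3.62 in shCtl and 6.59 and 7.67 in shM2-3. The difference was 2.03-fold (log2 fold change 1.02, SE 0.148, adjusted p = 3.02e-05), close to the limit of 2, and the call was lost without shCtl replicate 2 (0.99) or shM2-3 replicate 2 (0.90). CASP6 lies on chromosome 4 (109688622 to 109703583, minus strand), and its exons overlap those of MCUB, whose log2 fold change was -0.63.

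CASP8, the initiator caspase of the extrinsic pathway, rose from RPKM 5.85 and 6.33 in shCtl to 9.53 and 11.02 in shM2-3 (log2 fold change 0.82, SE 0.0901, adjusted p = 2.14e-06). CASP9, the initiator caspase of the apoptosome, went the other way, at 4.54 and 4.37 in shCtl and 2.30 and 2.36 in shM2-3 (log2 fold change -0.87, SE 0.123, adjusted p = 2.55e-05). Groups of both initiators were separate, and neither reached the 2-fold limit. CASP2, a caspase activated by the PIDDosome, had RPKM of 4.39 and 5.06 in shCtl and 7.45 and 6.82 in shM2-3 (log2 fold change 0.66, SE 0.0915, adjusted p = 2.03e-05).

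CYCS, which encodes cytochrome c, was at RPKM 19.9 and 19.1 in shCtl and 16.9 and 17.3 in shM2-3. Its log2 fold change of -0.13 (SE 0.0471, adjusted p = 0.0260) did not pass without shCtl replicate 1 or shM2-3 replicate 1, and with 42 numbered CYCS pseudogenes in the annotation its counts are uncertain. APAF1, the scaffold of the apoptosome, had a log2 fold change of 0.11 (SE 0.0608, adjusted p = 0.119). CASP10, a paralog of CASP8, was under RPKM 1 throughout, with 75 and 63 counts with shCtl and 30 and 61 with shM2-3, and its groups were separated by a small gap.

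CASP1, the inflammasome caspase that matures interleukin-1β and cleaves GSDMD, was called higher from very low counts of 4 and 14 with shCtl and 54 and 59 with shM2-3. Its RPKM was 0.0823 and 0.283 in shCtl and 0.909 and 1.10 in shM2-3, all low levels, with separate groups. The fitted difference was 5.65-fold (log2 fold change 2.50, SE 0.518, adjusted p = 0.000679), and it depended on the shCtl libraries, being 1.88 without shCtl replicate 1 and 3.63 without shCtl replicate 2. The gene lies on chromosome 11 (105025397 to 105035250, minus strand) and has 2 numbered pseudogenes. CASP4, a sensor of intracellular lipopolysaccharide in the same gene cluster, was far more abundant and fell, with RPKM of 24.1 and 24.4 in shCtl and 16.5 and 18.3 in shM2-3 (log2 fold change -0.41, SE 0.0813, adjusted p = 0.000487). GSDMD, the pore-forming substrate of both caspases, had overlapping groups (15.9 and 14.7 against 15.0 and 15.6).

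Of the inhibitor of apoptosis proteins, which bind caspases or ubiquitinate signalling proteins at death receptors, XIAP, BIRC2 and BIRC3 rose and none reached 2-fold. BIRC2, which encodes cIAP1, was at RPKM 39.5 and 38.8 in shCtl and 49.7 and 49.0 in shM2-3 (log2 fold change 0.40, SE 0.0412, adjusted p = 1.11e-06). XIAP, a direct inhibitor of caspases, was at 5.67 and 5.47 in shCtl and 7.05 and 6.80 in shM2-3, and its log2 fold change of 0.38 was close to that of BIRC2. BIRC3, which encodes cIAP2, had a log2 fold change of 0.22 (SE 0.0756, adjusted p = 0.0191), which missed the threshold without shCtl replicate 2 or shM2-3 replicate 1.

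Among the mitochondrial antagonists of these proteins, HTRA2, a serine protease, fell from RPKM 15.6 and 15.1 in shCtl to 9.01 and 7.57 in shM2-3 (log2 fold change -0.82, SE 0.0864, adjusted p = 1.38e-06). Its exons overlap those of AUP1 and LOXL3. The other antagonist, DIABLO, had a log2 fold change of 0.16 (SE 0.0783, adjusted p = 0.0798) and passed without shCtl replicate 2 (0.25, adjusted p = 0.0151). For the inhibitors 3 of 3 rose, where 36.3% of all genes rose at the adjusted p. The antagonists gave a fall for HTRA2 and no call for DIABLO.

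Every tested death receptor passed the adjusted p, with 4 of 5 higher and FAS lower, where 36.3% and 36.4% of all genes passed in those directions. TNFRSF10B, which encodes the TRAIL receptor DR5 and is a p53 target, had 1887 and 2123 counts with shCtl and 4728 and 4122 with shM2-3. Its RPKM was 20.2 and 22.3 in shCtl and 41.3 and 39.8 in shM2-3. The log2 fold change of 0.9993 (SE 0.0514, adjusted p = 8.65e-10) lay just under the limit of 2-fold, so TNFRSF10B rose without being called, and scaling by DESeq2's size factors placed it just over the limit, as did leaving out shCtl replicate 2 (1.07) or shM2-3 replicate 2 (1.02). Its exons overlap those of RHOBTB2, whose log2 fold change was 0.46.

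TNFRSF1A, the main TNF receptor, was at RPKM 48.9 and 50.8 in shCtl and 75.9 and 77.9 in shM2-3 (log2 fold change 0.69, SE 0.0445, adjusted p = 8.91e-09). TNFRSF10D, a TRAIL receptor with a truncated death domain that is regarded as a decoy, was at 22.6 and 23.3 in shCtl and 35.7 and 33.9 in shM2-3 (log2 fold change 0.67, SE 0.0470, adjusted p = 2.31e-08). TNFRSF10A, which encodes DR4, rose least, with a log2 fold change of 0.27 (SE 0.0993, adjusted p = 0.0263). That difference missed the threshold without either shCtl library or without shM2-3 replicate 2. With every library kept, it also missed the threshold in the DESeq2 Wald test (adjusted p = 0.0971). The 3 TRAIL receptors among the members together were at a summed RPKM of 48.8 and 51.7 in shCtl and 83.6 and 81.0 in shM2-3. A further decoy receptor, TNFRSF10C, listed with the other p53 targets and named here after its values were seen, had 22 and 16 counts with shCtl and 57 and 68 with shM2-3 and was called higher (log2 fold change 1.58, SE 0.393, adjusted p = 0.00266). TNFRSF10C was above RPKM 1 in shM2-3 libraries alone. Differences between the receptors were not tested.

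FAS, the receptor for FAS ligand and a p53 target, had 140 and 92 counts with shCtl and 93 and 59 with shM2-3. Its RPKM was 1.54 and 0.992 in shCtl and 0.834 and 0.584 in shM2-3, so the groups were separate but near each other. The log2 fold change was -0.76 (SE 0.272, adjusted p = 0.0222), and it was -0.41 (adjusted p = 0.296) without shCtl replicate 1 and -0.54 (adjusted p = 0.151) without shM2-3 replicate 2. Without shCtl replicate 2 (-1.05) or shM2-3 replicate 1 (-1.04) FAS was called lower. FAS shares exon sequence with ACTA2, which had 149 and 129 counts with shCtl and 49 and 56 with shM2-3. TNFSF10, which encodes the ligand TRAIL, had no count in either shCtl library and 3 and 11 counts with shM2-3, levels at which no fold change is given.

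Of the adaptors that assemble on these receptors, RIPK1 and CFLAR were called higher, FADD rose and TRADD did not pass. Over all genes tested, 9.24% were called higher and 36.3% rose at the adjusted p. RIPK1, a kinase that directs TNF receptor signalling to NF-kB, apoptosis or necroptosis, had 386 and 324 counts with shCtl and 1067 and 1012 with shM2-3. Its RPKM was 3.45 and 2.85 in shCtl and 7.80 and 8.17 in shM2-3, a 2.65-fold difference (log2 fold change 1.41, SE 0.0964, adjusted p = 1.74e-08). RIPK1 lies on chromosome 6 (3063824 to 3115187, plus strand).

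CFLAR, which encodes c-FLIP, a catalytically inactive relative of CASP8, had 706 and 625 counts with shCtl and 1663 and 1443 with shM2-3. Its RPKM was 1.43 and 1.24 in shCtl and 2.75 and 2.63 in shM2-3, a 2.11-fold difference (log2 fold change 1.08, SE 0.0757, adjusted p = 2.25e-08). Without shCtl replicate 2 the value was 0.98, just under the fold limit. It was also under the limit with limma on log2(RPKM + 0.1) (0.96) and on log2(RPKM + 1) (0.66). The gene lies on chromosome 2 (201116154 to 201176687, plus strand), and its annotated antisense partner CFLAR-AS1 had at most 5 counts.

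FADD, which joins the receptors to CASP8, was at RPKM 52.4 and 56.1 in shCtl and 74.6 and 75.4 in shM2-3 (log2 fold change 0.53, SE 0.0471, adjusted p = 2.33e-07). TRADD, the TNF receptor adaptor, had overlapping groups (8.48 and 7.99 against 7.16 and 8.07) and a log2 fold change of -0.048 (SE 0.123, adjusted p = 0.737). CASP8, FADD and CFLAR, whose products meet in the same receptor complex, were thus all higher in shM2-3, and CFLAR alone passed 2-fold. MLKL, the effector of necroptosis, fell from RPKM 5.29 and 4.0 in shCtl to 3.42 and 2.97 in shM2-3 (log2 fold change -0.47, SE 0.158, adjusted p = 0.0158), a difference that did not pass without shCtl replicate 1 or shM2-3 replicate 2.

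**Figure D4:**
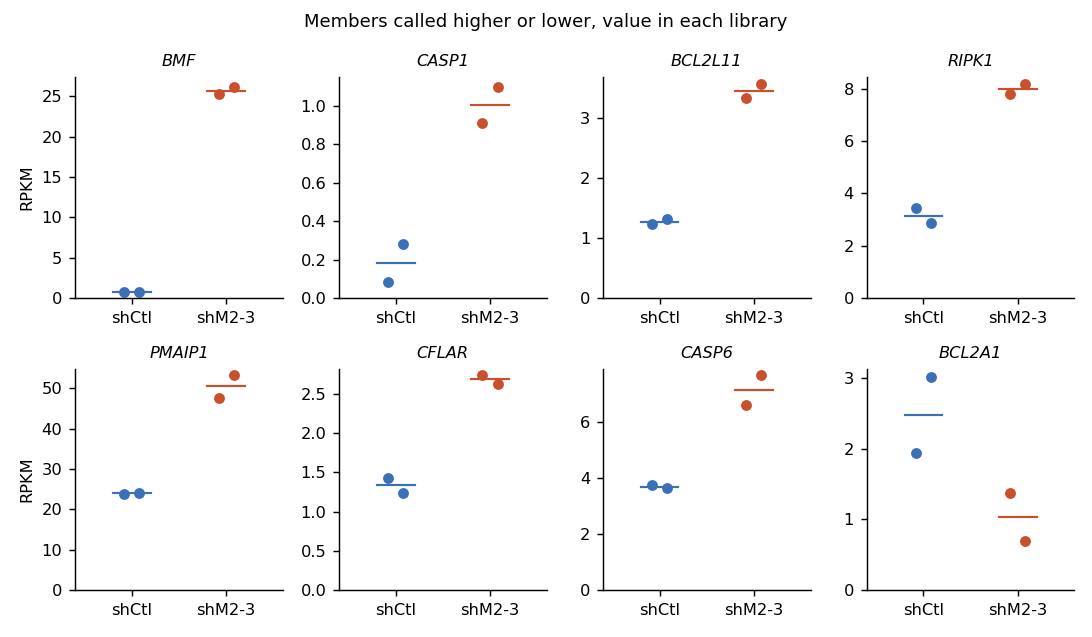
RPKM (vertical axes from 0, each with its own scale) of the 8 called members, with a point for each library and a line at the mean of the 2 libraries of a group. BMF goes from 0.736 and 0.783 in shCtl to 25.2 and 26.1 in shM2-3, while CASP1 stays at or below 1.10, and BCL2A1 has the nearest groups, with 1.94 as its lowest shCtl value and 1.38 as its highest shM2-3 value.

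The 3 members grouped as p53 regulators and targets all passed the adjusted p, without reaching 2-fold. Among all genes tested, 36.3% passed it higher and 36.4% lower. MDM2, the ubiquitin ligase that p53 induces and that degrades p53, fell from RPKM 3.95 and 3.79 in shCtl to 2.39 and 2.15 in shM2-3 (log2 fold change -0.70, SE 0.0729, adjusted p = 1.22e-06). TP53I3, a quinone oxidoreductase induced by p53, had 220 and 221 counts with shCtl and 427 and 422 with shM2-3, with RPKM of 4.62 and 4.56 in shCtl and 7.32 and 8.00 in shM2-3 (log2 fold change 0.80, SE 0.118, adjusted p = 3.31e-05). TP53INP1, a p53-induced stress protein, was at RPKM 1.87 and 2.60 in shCtl and 2.85 and 2.66 in shM2-3, and its log2 fold change of 0.37 (SE 0.139, adjusted p = 0.0293) missed the threshold without shCtl replicate 1 or either shM2-3 library.

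Members picked as p53 targets went in both directions. This group of 8 (BAX, BBC3, PMAIP1, FAS, TNFRSF10B, MDM2, TP53INP1 and TP53I3) was put together after values had been seen. At the adjusted p 4 of them rose, 2 fell and 2 did not pass, and their median log2 fold change was 0.23. Of 24 other p53 targets 22 were tested, of which 9 rose, 8 fell and 5 did not pass, with a median of 0.035. These shares of 40.9% higher and 36.4% lower were near the 36.3% and 36.4% of all genes. In that list 4 of 22 were called higher (18.2%, against 9.24% of all genes) and 3 lower (13.6%, against 8.93%). Those called higher were GDF15, CDKN1A (log2 fold change 2.11), TNFRSF10C and PHLDA3 (1.16). Of these, TNFRSF10C entered the test through shM2-3 libraries alone, at RPKM 0.616 and 0.439 in shCtl and 1.32 and 1.74 in shM2-3. SESN1, which was not called, entered through shCtl libraries alone. Those called lower were EDA2R, DDB2 (-1.52) and PLK2 (-1.25). GDF15, a secreted stress cytokine, was its highest gene, with 12 and 30 counts with shCtl and 146 and 149 with shM2-3 (log2 fold change 2.67, SE 0.337, adjusted p = 8.16e-06). EDA2R, a p53-induced receptor of the TNF receptor family, was its lowest, with 453 and 431 counts with shCtl and 173 and 137 with shM2-3 (log2 fold change -1.66, SE 0.127, adjusted p = 5.65e-08).

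**Figure D5:**
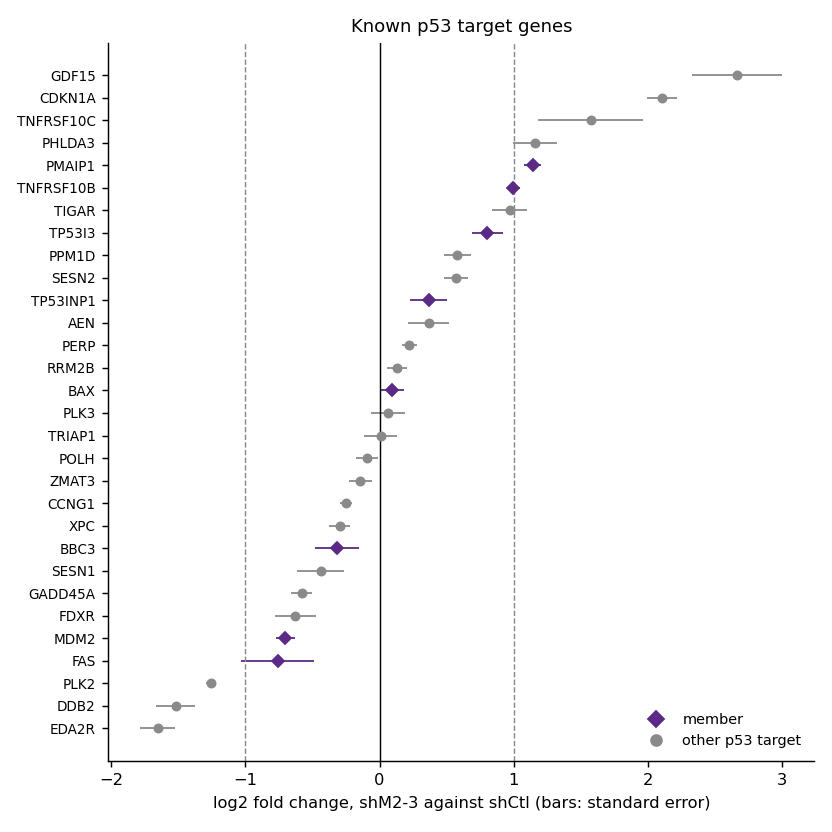
Log2 fold change of shM2-3 over shCtl for 22 other p53 targets (grey circles) and for 8 members (purple diamonds). These 8 were picked as p53 targets after values had been seen. Colour marks the list and not the call. Values lie on both sides of 0, from -1.66 for EDA2R to 2.67 for GDF15, and PMAIP1 is the one called gene among the diamonds.

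Of 33 further genes of the cell death machinery, 22 were tested. At the adjusted p, 8 rose (36.4%, against 36.3% of all genes), 9 fell (40.9%, against 36.4%) and 5 did not pass. Their median log2 fold change was 0.16, against -0.0037 over all genes. Called higher were 2 of 22 (9.09%) and called lower were 2 (9.09%), shares near those of all genes. XAF1, an interferon-induced antagonist of XIAP, was the highest, with 3 and 4 counts with shCtl and 187 and 140 with shM2-3 (log2 fold change 5.35, SE 0.388, adjusted p = 3.13e-08). It entered the test through shM2-3 libraries alone, at RPKM 0.031 and 0.040 in shCtl and 1.56 and 1.29 in shM2-3. BNIP3, a mitochondrial protein induced by hypoxia that acts in mitophagy, was the lowest, with 14653 and 15314 counts with shCtl and 4301 and 4074 with shM2-3 (log2 fold change -1.98, SE 0.0428, adjusted p = 1.15e-13). For both genes the groups were far apart relative to the replicates.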

How the data were processed

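Libraries were non-strand-specific and read as paired ends. Per the labels and the methods of the study, the authors aligned reads to hg38 with HISAT2 2.0.4 and quantified RefSeq genes in Partek 7.18. The estimated counts were deposited without normalization and need not be whole (42.4% to 48.6% of values per library were). The deposited RPKM values scale these counts by gene length and library. Counts were rounded to whole numbers, a step the design had not assumed, and compared between groups with edgeR 4.0.16 in R 4.3.3 (TMM, glmQLFit, glmQLFTest, no block), over genes with RPKM above 1 in at least 1 library. SE is the log2 fold change divided by the square root of F. The code was tested on simulated data. The common biological coefficient of variation was 0.0485. An SD of 2 libraries is rough, so each library's value is given, and counts carry counting error besides. Positions are from GENCODE on hg38 and promoters from RefSeq.

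The members and lists were chosen with earlier results of these data known. Values in every library are given for called members and for the highest and lowest member of each role, and other members' values were added for their role. Alternatives were total counts, DESeq2 1.42.0, limma 3.58.1 on log2(RPKM + 0.1) and log2(RPKM + 1), other filters, a fold limit of 1.5, a replicate block and leaving out each library. A marker result is not reported here.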

Additional observations from a re-analysis of the deposited data

How the results depend on the processing

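Over the 40 members and 12 alternatives, 451 of 480 log2 fold changes kept their direction and their side of the call, 14 lost a call, 7 gained one and 8 changed sign. With limma on log2(RPKM + 1), which shrinks low genes, 596 genes were called higher (against 1123) and 724 lower (against 1086), and the members numbered 3 higher (against 7) and 0 lower (against 1). With a fold limit of 1.5, 2296 genes were higher and 2302 lower, and of the members 14 and 5. With the DESeq2 Wald test, 18 members passed the adjusted p higher (against 21) and 7 lower (against 9). BIRC3, TNFRSF10A, TP53INP1, BID and CYCS did not pass in that test. In both limma fits BIRC3, TNFRSF10A, TP53INP1 and FAS did not pass, while MCL1 and BBC3 did. Without a filter on low values, or with filterByExpr, 2 members were lower, and without the filter 1658 genes were called higher and 1523 lower. The share of MCL1 in summed pro-survival values was 76.1% in shCtl and 72.7% in shM2-3 with estimated counts, which are not scaled by length. Leaving out each library in turn gave 6 to 7 members higher, 0 to 2 lower, 19 to 21 past the adjusted p higher and 5 to 7 lower (against 9), with a median of 0.19 to 0.28, 1099 to 1162 genes higher and 1069 to 1088 lower, and MCL1 shares of 70.8% to 71.2% and 66.8% to 68.0%.

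The sign changed for genes near 0. Leaving out each library in turn put BAX between -0.035 and 0.24, TRADD between -0.14 and 0.044 and BAD between -0.067 and 0.12. BAD was at -0.0041 with total counts, -0.039 and -0.037 with limma on log2(RPKM + 0.1) and log2(RPKM + 1) and -0.000096 with no filter. Causes were not tested. Log2 fold changes over the alternatives ranged from 3.92 to 5.19 for BMF, 1.04 to 1.23 for PMAIP1, 1.12 to 1.56 for RIPK1, 0.97 to 1.56 for BCL2L11 and 0.76 to 3.63 for CASP1. CASP6 was under the fold limit at 0.98 with total counts, and at 0.93 and 0.79 with limma on log2(RPKM + 0.1) and log2(RPKM + 1).

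Same-numbered libraries of the groups did not deviate together (correlation 0.0248 over 11131 genes). With 2 libraries in each group this is a single correlation, which cannot exclude a shared day of infection or preparation. With the replicate number as a block, 1123 genes were higher and 1079 lower. Of the members 8 were higher, 1 was lower, and 22 and 9 passed the adjusted p. The added call was TNFRSF10B, at 1.00, as also with DESeq2. Members with few counts (BCL2A1, CASP1, FAS) are limited by depth.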
